A study of Homo sapiens with 8 samples.

Results

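DS3 is a discrete subline of PC9, a human non-small cell lung cancer cell line that carries an EGFR exon 19 deletion and no T790M mutation, and was compared here with PC9-VU, the cell line version from which it was grown. The comparison rests on 2 of the 8 bulk RNA-seq libraries of the series, 1 of DS3 and 1 of PC9-VU. It covers 4532 of the 22664 rows of the count table that carry a gene symbol, namely those with a mean of at least 50 counts over the 8 libraries that are named for 1 gene of chromosomes 1 to 22 or X. Both populations carried a red fluorescent histone label in the nucleus, were left without drug, and were sequenced between passages 8 and 10. DS3 was obtained by limiting dilution of labelled PC9-VU cells, so it is 1 clone, and it stands for no other single-cell descendant of PC9-VU. The series also holds the PC9-VU sublines DS6, DS7, DS8 and DS9 and the cell line versions PC9-MGH and PC9-BR1, of which PC9-BR1 arose in PC9-VU cells kept in rising doses of the EGFR inhibitor afatinib and carries the T790M mutation. The question that DS3 against PC9-VU addresses is how far 1 cell's descendants differ in their transcriptome from the mixed population that gave rise to them.

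Tumour cell lines often carry gained and lost chromosome arms, and cells of 1 line can differ in which arms they carry. The amount of RNA made from a gene tends to follow its number of copies, so a gain or loss of a whole arm can appear as a small shift, in 1 direction, of many neighbouring genes. A clone grown from a single cell starts with the chromosomes of that cell, whereas its parent shows the average over all its cells. The values below are RNA read counts, and no DNA copy number was measured in them. In a bulk library, a lower level in every cell and a mixture of cells with and without the RNA cannot be told apart.

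The named rows held 3497722 counts in the PC9-VU library and 3221443 in the DS3 library, within the 2717355 to 3497722 counts of the 8 libraries. The row names do not identify the transcript that was counted. Of 353 rows named for olfactory receptors, which lung cells are not known for, 23 had 10 counts or more. Of the 22664 rows with a symbol, at least 6353 did, so the olfactory rows did so less often than rows at large. Of 81 rows named for ribosomal proteins, which every growing cell makes in quantity, 55 had a mean of under 10 counts. The ribosomal rows thus reached 10 counts little more often than rows at large. The counted positions were therefore searched for by sliding the exons of each named gene along its chromosome until rows with many counts lay on annotated coding exons more often than rows with almost none. Distances under 5000 bases were left out of this search, so it always returned some displacement. On 9q the best distance was 2.76 Mb and on 21q it was 1.42 Mb, with differences of 16.5 and 19.0 percentage points against 10.8 and 15.2 at the next best distance. On 8p, 12p, 15q and 20p the best distance was under 0.3 Mb in either direction, although on 12p the next best distance gave 14.04 percentage points against 14.70. The best distances of 20p and 9p were -5000 and 5800 bases, at or near the limit of the search, so it does not show a displacement there. On 10p no distance stood out, with 9.01 against 8.61 percentage points. No single gene was therefore read from a row, the cell line could not be checked against marker genes, and only arms and windows of neighbouring rows are described. Positions are those of the named genes in GENCODE release 44 (GRCh38) and may lie these distances from what was counted.

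Values are log2 CPM, that is counts divided by the library total and scaled to a common size, with the totals adjusted by the trimmed mean of M-values (TMM) over all 8 libraries. A difference is DS3 minus PC9-VU. Each population has a single library, so there is no replicate error and no test. Intervals give counting error only, and a row, window or arm is called when it passes a fixed size. Over the 4532 rows the median difference was -0.01 and the interquartile range of the rows was -0.18 to 0.16. In DS3, 35 rows were at least 2-fold lower, 0.772% of those compared, and 31 were at least 2-fold higher, 0.684%. By any amount, 50.9% of the rows were lower and 49.1% were higher, and 15.9% were at least 1.2-fold lower and 14.7% at least 1.2-fold higher. Of 172 windows of 25 or more neighbouring rows, 4 had a median at or below -0.3, 2.33% of the windows, and 1 had a median at or above 0.3, 0.581%. Of the 40 arms with at least 25 rows, 5 had a median at or below -0.15, namely 9q, 10p, 12p, 20p and 8p, and 2 had a median at or above 0.15, namely 15q and 21q. The other 33 arms had medians between -0.14 and 0.10. Nearest the threshold were 18p at -0.14, with 76.9% of rows lower, 5p at -0.12, with 72.6% lower, and 20q at 0.10, with 67.2% higher. The median of 18p was -0.17, past the threshold, at a mean of at least 10 or of 100 counts and by library totals without TMM. The 4 low windows were 3 neighbouring windows of 9q and 1 of 10p. The high window was the only one of chromosome 21, and its median of 0.305 was barely past the threshold.

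**Figure D1:**
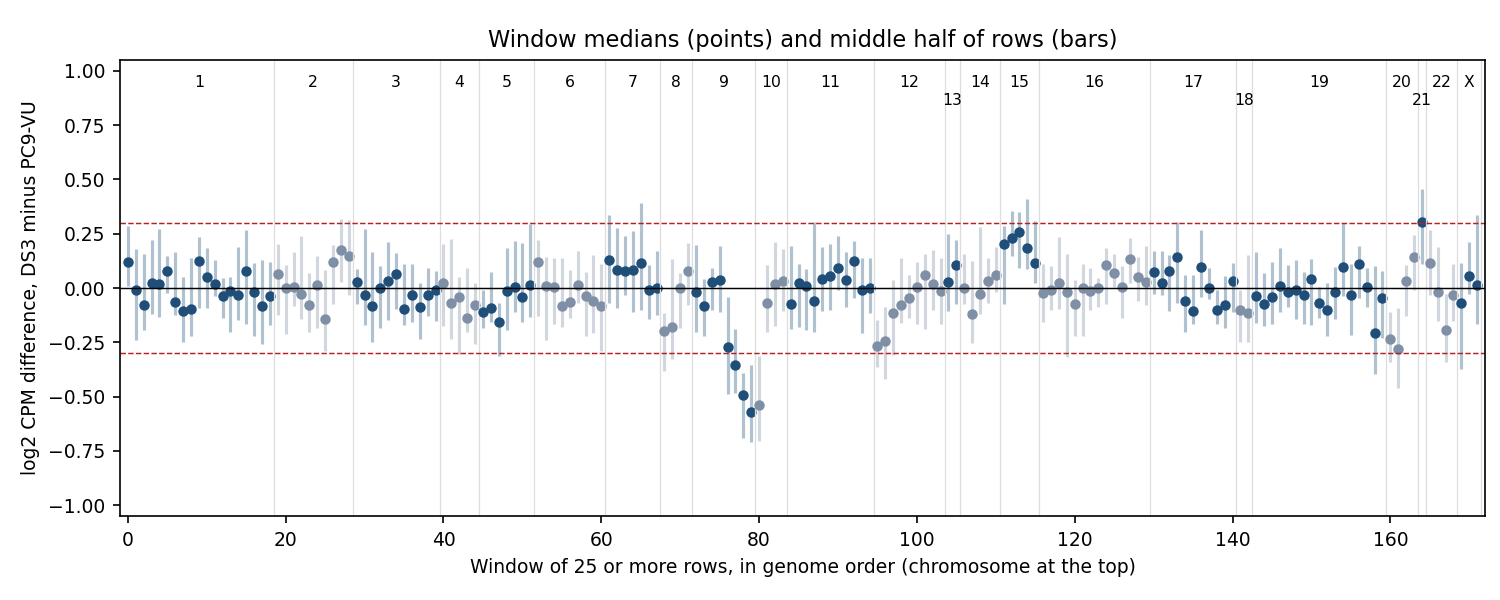
Median log2 CPM difference (DS3 minus PC9-VU, 1 library each) in each of 172 windows of 25 or more neighbouring rows, in genome order, with vertical bars for the interquartile range of the rows and dashed lines at the window threshold of 0.3 in each direction. The points drop on the second arm of chromosome 9 and at the start of chromosome 10, lie somewhat below 0 at the start of chromosomes 8, 12 and 20, and lie above 0 on chromosomes 15 and 21.

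The long arm of chromosome 9 was the low arm with the most rows in DS3. This arm holds, among many others, the tyrosine kinase gene ABL1, the mTORC1 inhibitor gene TSC1 and the receptor gene NOTCH1, none of which was measured here by name. Of its 111 rows, 102 were lower in DS3, or 91.9% against 50.9% of all rows. The median difference was -0.45, a ratio of 0.731, and the interquartile range was -0.68 to -0.27. Summed over the arm, the DS3 library had 10458 CPM (95% exact Poisson interval 10346 to 10571) and the PC9-VU library 14284 CPM (14159 to 14409). The log2 ratio of these sums was -0.45, with a 95% exact binomial interval of -0.47 to -0.43. Rows that were lower followed each other without a break for up to 38 rows, and 84 rows were at least 1.2-fold lower, whereas 4 were at least 1.2-fold higher, beside 15.9% and 14.7% of all rows. Rows on 9q spanned -1.60 to 0.90, and 7 of the 35 rows at least 2-fold lower lay there. The median did not hang on the abundant rows. It was -0.38 over the 30 rows with a mean of 50 to under 100 counts, -0.45 over the 42 rows of 100 to under 300 and -0.47 over the 39 rows of 300 or more. Among 40 rows of 9q with a mean of only 10 to under 50 counts, which took no part in the values above, 28 were lower and the median was -0.40.

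Along chromosome 9 the difference was near 0 up to the centromere. The first window, from 0.2 to 13.3 Mb, had a median of -0.02, with 8836 counts in DS3 and 9790 in PC9-VU. The second, from 14.1 to 33.0 Mb, had a median of -0.08. The next pair, from 33.0 to 35.1 Mb and from 35.1 to 37.9 Mb, had medians of 0.03 and 0.04. These 4 windows of the short arm thus lay on both sides of 0. The fifth window crosses the centromere, from 37.9 to 96.5 Mb, and had a median of -0.27, with 19 of 25 rows lower. From there each window was lower than the one before. The sixth, from 97.3 to 125.2 Mb, had a median of -0.36 and 23 of 25 rows lower, with 12258 counts in DS3 and 16514 in PC9-VU. The seventh, from 125.3 to 128.7 Mb, had a median of -0.49 and 24 of 25 rows lower, with 7771 counts in DS3 and 12996 in PC9-VU. The eighth, from 128.7 to 134.9 Mb, had a median of -0.57 and 37 of 40 rows lower, with 8140 counts in DS3 and 13403 in PC9-VU. The log2 ratios of summed counts in the last 3 windows were -0.29 (-0.32 to -0.25), -0.60 (-0.64 to -0.56) and -0.58 (-0.62 to -0.54). The single cut that best divides the 215 rows of the chromosome into parts of unlike median fell between the last row of the short arm, at 39.1 Mb, and the first row of the long arm, at 69.0 Mb. It left 104 rows with a median of 0.0041 before it and 111 rows with a median of -0.45 after it. It removed 24.97% of the summed absolute deviation from the chromosome's median. The cut was chosen from these same values, and no chromosome without a called arm was cut for comparison.

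**Figure D2:**
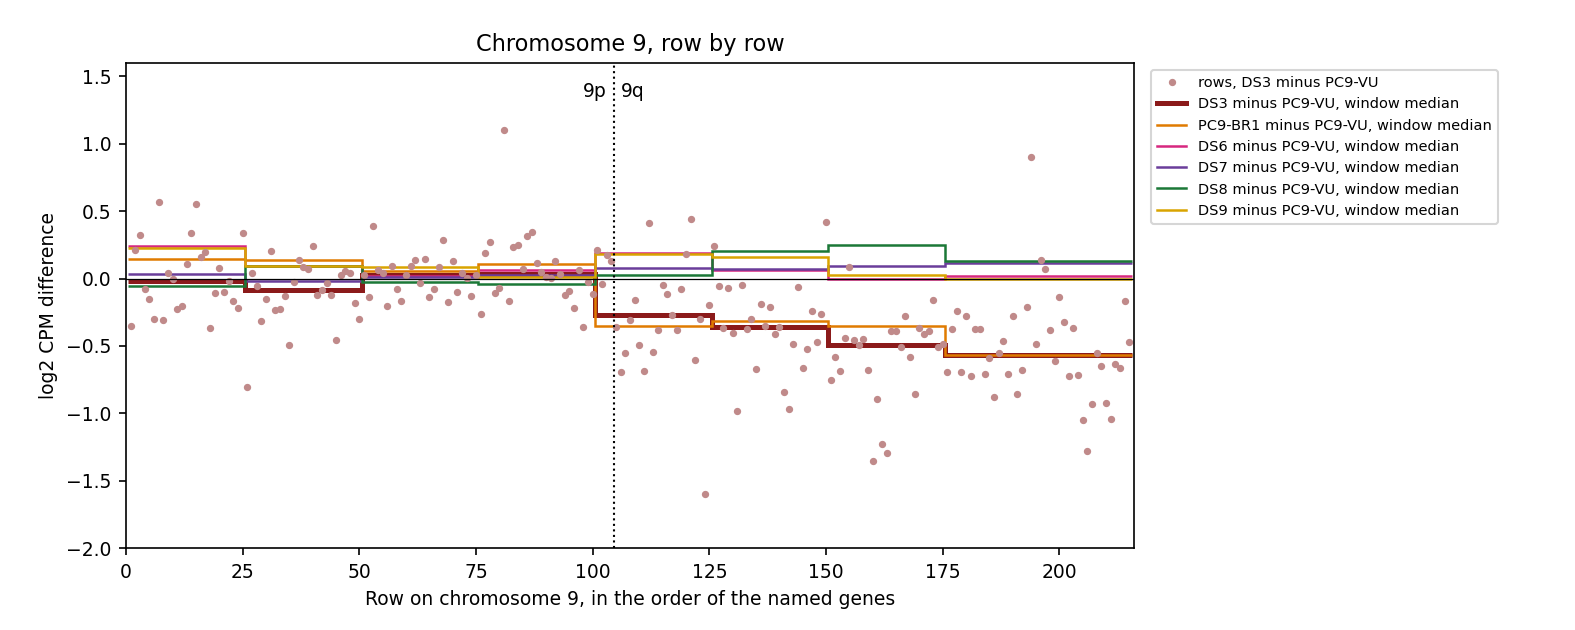
Log2 CPM difference of each of the 215 rows of chromosome 9 (points, DS3 minus PC9-VU) in the order of the named genes, with the window medians of DS3, PC9-BR1 and the other 4 sublines against PC9-VU as stepped lines and a dotted line at the centromere. DS3 and PC9-BR1 step below 0 at the centromere and reach -0.57 in the last window, while the other 4 sublines stay between -0.0045 and 0.25 over the windows of 9q.

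The short arm of chromosome 9, which holds the cell cycle inhibitor gene CDKN2A, showed no such shift. Of its 104 rows, 51 were lower and 53 were higher, the median difference was 0.0041 and the interquartile range was -0.14 to 0.13. Of these rows, 11 were at least 1.2-fold lower and 11 at least 1.2-fold higher, beside 15.9% and 14.7% of all rows. Its summed level was 26998 CPM in DS3 (26818 to 27179) and 27249 CPM in PC9-VU (27077 to 27422). The log2 ratio of the sums was -0.01, so the arms of chromosome 9 differed from each other by more than 0.4 on the log2 scale by either summary.

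On the short arm of chromosome 10, which holds the transcription factor gene GATA3, 25 of 27 rows were lower in DS3 and the median difference was -0.54, the lowest of the 40 arms. The interquartile range of the rows was -0.71 to -0.31, and 22 rows were at least 1.2-fold lower while 0 were at least 1.2-fold higher, beside 15.9% and 14.7% of all rows. The summed level was 2275 CPM in DS3 (2223 to 2328) and 3071 CPM in PC9-VU (3014 to 3130), a log2 ratio of -0.43 (-0.48 to -0.39). The arm rests on few rows. Its first window, from 0.8 to 34.8 Mb, had 24 of 25 rows lower, and its 20 rows of 10 to under 50 counts had a median of -0.34, with 14 lower. The cut that best divides the 105 rows of the chromosome lay on the long arm between 43.1 and 45.0 Mb, with 2 rows of the long arm on the low side. The medians before and after it were -0.43 and 0.01.

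On the short arm of chromosome 12, which holds the cell cycle inhibitor gene CDKN1B, 54 of 60 rows were lower. The median difference was -0.25, with an interquartile range of -0.40 to -0.14, and the summed level was 13964 CPM in DS3 (13835 to 14094) and 16552 CPM in PC9-VU (16417 to 16686). In the first window, from 0.1 to 6.8 Mb, all 25 rows were lower. The 25 rows of 10 to under 50 counts had a lower median, -0.50, with 21 of them lower. The best cut of the chromosome lay on the short arm, between 27.5 and 30.6 Mb, with a median of -0.27 over the 57 rows before it and -0.02 over the 185 rows after it.

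On the short arm of chromosome 20, which holds the replication clamp gene PCNA, 41 of 52 rows were lower and the median difference was -0.24, with an interquartile range of -0.38 to -0.11. The summed level was 10738 CPM in DS3 (10625 to 10853) and 12356 CPM in PC9-VU (12241 to 12473). The shift was not seen in the rows of 10 to under 50 counts, of which 8 of 21 were lower, with a median of 0.17. The long arm of the same chromosome had a median of 0.10, and the best cut lay just past the centromere, between 32.9 and 33.0 Mb, with medians of -0.23 and 0.10 on its sides.

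On the short arm of chromosome 8, which holds the receptor gene FGFR1, 40 of 54 rows were lower and the median difference was -0.19. The interquartile range was -0.35 to 0.01. The summed level was 5429 CPM in DS3 (5348 to 5510) and 6060 CPM in PC9-VU (5979 to 6142). The window from 1.8 to 23.4 Mb had 21 of 25 rows lower and a median of -0.20, and the next, from 23.4 to 42.3 Mb, had 16 of 25 rows lower and a median of -0.18. The best cut lay within the arm, between 30.8 and 37.8 Mb, with a median of -0.22 over the 39 rows before it and 0.0011 over the 62 rows after it, and FGFR1 lies past the cut. The 18 rows of 10 to under 50 counts had a median of -0.34.

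The rows of chromosome 21, all on the long arm, were higher in DS3. This chromosome holds the transcription factor gene RUNX1 and the kinase gene DYRK1A. Of its 35 rows, 31 were higher, or 88.6% against 49.1% of all rows. The median difference was 0.31, a ratio of 1.24, with an interquartile range of 0.11 to 0.45 and a range of -0.70 to 0.76. The 35 rows form 1 window, from 29.7 to 45.3 Mb, which held 11043 counts in DS3 and 9657 in PC9-VU. Its summed level was 3460 CPM (3396 to 3525) and 2740 CPM (2686 to 2796), a log2 ratio of 0.34 (0.30 to 0.38). Rows that were higher followed each other for up to 21 rows, 19 rows were at least 1.2-fold higher and 1 was at least 1.2-fold lower, beside 14.7% and 15.9% of all rows. The 16 rows of 10 to under 50 counts had a smaller median, 0.16, with 6 of them lower.

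The long arm of chromosome 15, which holds the growth factor receptor gene IGF1R and the gene B2M for the light chain of the major histocompatibility complex class I molecules, was also higher. Of its 136 rows, 107 were higher and the median difference was 0.22, with an interquartile range of 0.04 to 0.33. The summed level was 24789 CPM in DS3 (24617 to 24962) and 20543 CPM in PC9-VU (20394 to 20693). Its 5 windows had medians of 0.20, 0.23, 0.26, 0.18 and 0.12 in order along the arm, all above 0 and none past the window threshold of 0.3. The cut that best divides the 136 rows, chosen from these values, left a median of 0.23 over the 125 rows before it. The last 11 rows, from 90.2 Mb on, had a median of -0.0075. This cut removed only 7.84% of the summed absolute deviation, against 24.97% on chromosome 9, and IGF1R lies past it. Among 72 rows of 10 to under 50 counts, 30 were lower and the median was 0.11. Without the filter on low rows, 4 arms no longer passed the threshold of 0.15, with medians of -0.14 on 12p, -0.12 on 20p, -0.11 on 8p and 0.07 on 15q.

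**Figure D3:**
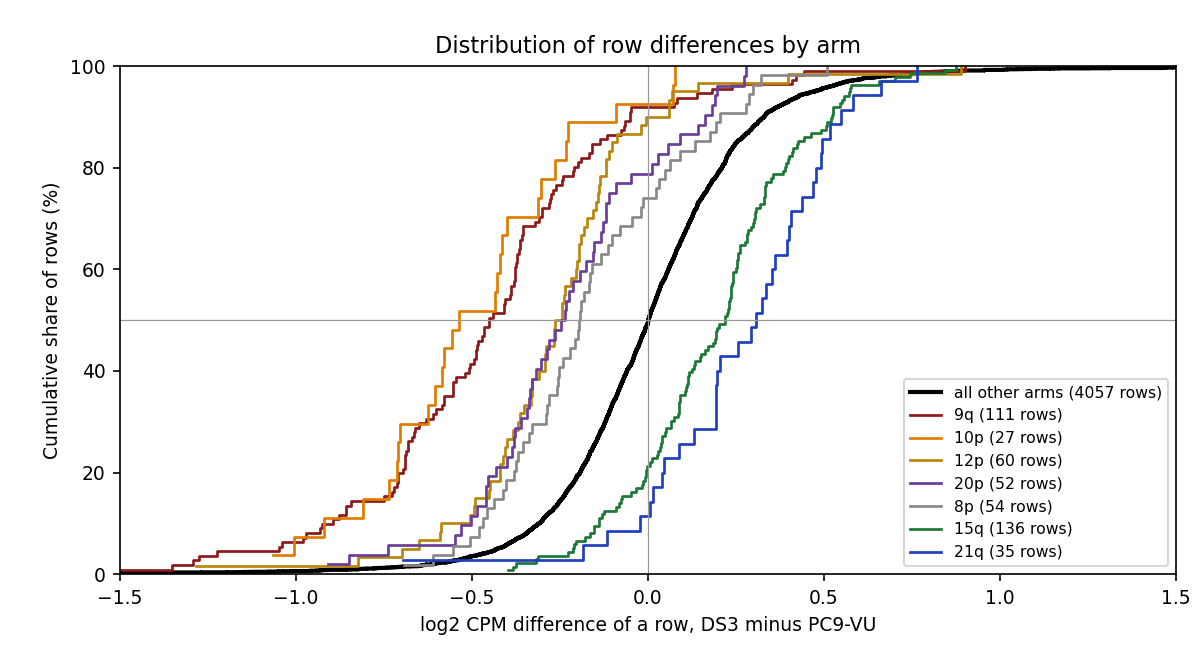
Cumulative share of rows (%) against their log2 CPM difference (DS3 minus PC9-VU) for each of the 7 called arms and for all other arms together. Over most of their length the curves of 9q and 10p lie to the left of that of the 4057 other rows and those of 15q and 21q to its right, and few rows of any called arm are 2-fold apart.

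The blocks were made of many small differences. The 5 low arms held 304 rows, 6.71% of all rows, of which 262, or 86.2%, were lower, and the 2 high arms held 171 rows, of which 33, or 19.3%, were lower. Beside them, 49.6% of the 4057 rows of the other arms were lower. The arms were grouped by the medians of these same rows, so the shares follow from the grouping and are no support for it. Of the 35 rows at least 2-fold lower, 10 lay on the low arms and 25 on the other arms. All of the 31 rows at least 2-fold higher lay on the other arms. These other arms held 89.5% of all rows and the 2 high arms only 3.77%, so few of the 31 would lie on the high arms by share alone. The difference of a row had a standard deviation of 0.37 over all rows. The means of the arms accounted for 9.04% of its variance, counting error for 18.0%, and neighbouring rows had a correlation of 0.14 over 4491 pairs, which share libraries and local base composition. The median GC content around the rows of 9q was 48.5%. That of 21q, 22q and 19q was 48.7%, 48.9% and 48.1%, and their median differences were 0.31, -0.02 and -0.01. With the differences corrected for GC content within 3 Mb, the median of 9q was -0.46 and that of 21q was 0.29.

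The other sublines were grown from the same parent, and all of these comparisons share the PC9-VU library, so each is given only for its own value. On 9q the medians against PC9-VU were 0.06 in DS6, 0.09 in DS7, 0.18 in DS8 and 0.05 in DS9, all above 0, while DS3 was at -0.45. On 10p they were 0.12, 0.26, 0.09 and 0.23 in the same order, against -0.54 in DS3. On 12p they were 0.10, 0.03, 0.0041 and 0.05, against -0.25. The sign of DS8 on 12p rests on 0.0041, so DS8 was level with the parent there. DS3 was thus on 1 side of the parent on 9q and 10p, and the remaining sublines on the other. On 21q the reverse held, with -0.37 in DS6, -0.18 in DS7, -0.49 in DS8 and -0.29 in DS9, against 0.31 in DS3. On 15q, DS8 had a median of 0.20, close to the 0.22 of DS3, and DS6, DS7 and DS9 had -0.32, -0.16 and -0.26. On 8p, DS6 was at -0.07, and DS7, DS8 and DS9 were at 0.32, 0.29 and 0.37. On 20p, DS6 was at -0.14 and DS8 at -0.02, and DS7 and DS9 were at 0.08 and 0.12.

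**Figure D4:**
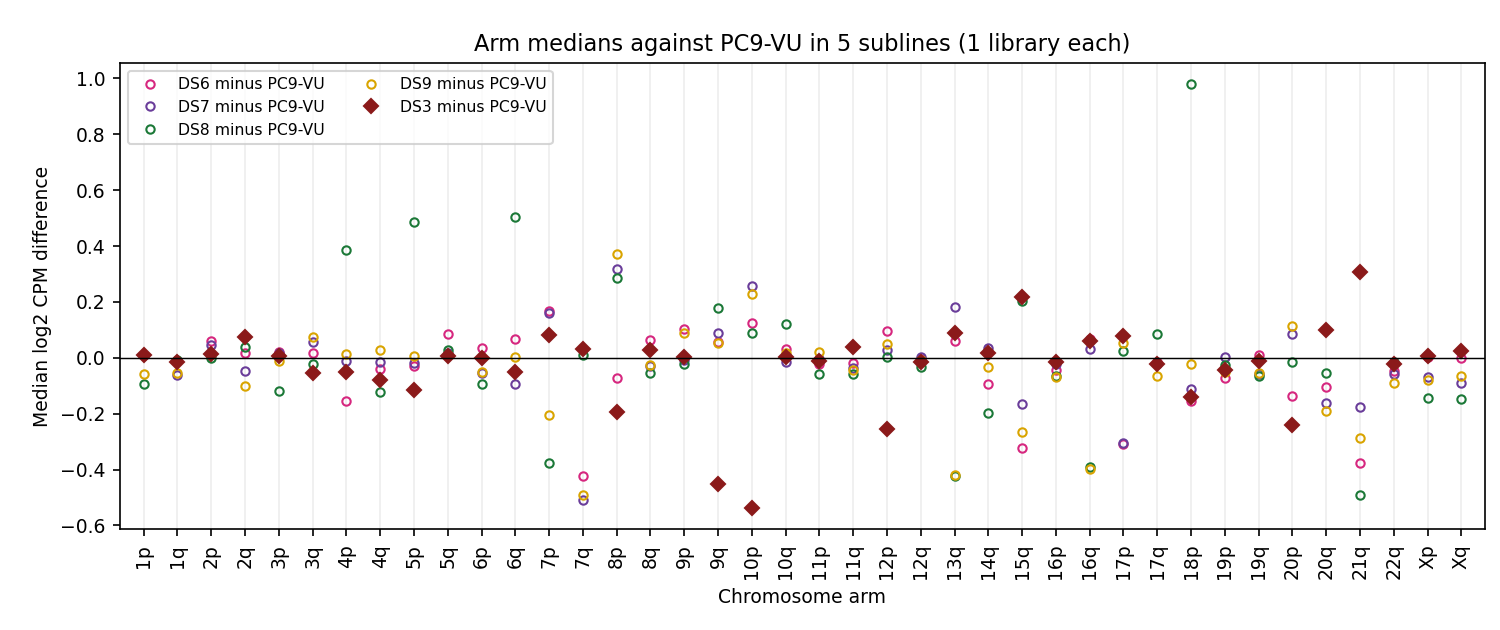
Median log2 CPM difference from PC9-VU of each of the 40 arms with at least 25 rows (x axis) in DS3 (filled diamonds) and in DS6, DS7, DS8 and DS9 (open circles), 1 library each and all against the same PC9-VU library. Among the called arms, DS3 lies alone below the line at 9q, 10p and 12p and alone above it at 21q. It also lies alone above the line, by less, at the uncalled arms 11q, 20q and Xq. At 7q DS3 lies near 0, where DS6, DS7 and DS9 are at -0.42, -0.51 and -0.49.

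Some arms that set other sublines apart from PC9-VU had small medians in DS3, all above 0. On 7q, where the receptor gene MET lies, the median of DS3 was 0.03 over 122 rows, with -0.42 in DS6, -0.51 in DS7 and -0.49 in DS9. On 17p it was 0.08, with -0.31 in DS6 and -0.30 in DS7. On 13q and 16q it was 0.09 and 0.06, while DS8 and DS9 were both at -0.42 on 13q and at -0.39 and -0.40 on 16q. The rows higher in DS3 were 54.1% on 7q, 69.1% on 17p, 66.1% on 13q and 63.8% on 16q, against 49.1% of all rows. DS3 was the highest of the 8 libraries on 17p. DS3 had the fewest rows at least 2-fold from PC9-VU, 66, where DS7 had 87, DS9 79, DS6 89 and DS8 199, although the DS3 and PC9-VU libraries are 2 of the 3 deepest. It also had the fewest windows past 0.3, 5 in all against 8 in DS7, 11 in DS6, 14 in DS9 and 26 in DS8. The correlation of neighbouring rows was 0.14 in DS3 and 0.21 to 0.30 in the other sublines. Arm means accounted for 9.04% of the variance in DS3 and for 9.84% to 15.9% in the others. The median over arms of the absolute arm median was 0.04 in DS3 and 0.05 to 0.09 in the others. By the spread of the rows and the number of called arms DS3 did not stand apart. The standard deviation of the rows was 0.37 in DS3, DS7 and DS9, 0.39 in DS6 and 0.50 in DS8. Called arms were 5 low and 2 high in DS3, 6 and 1 in DS6, 5 and 4 in DS7, 7 and 2 in DS9 and 5 and 7 in DS8.

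The level of each arm can also be given in all 8 libraries, as the median difference of its rows from their mean over the 8. On 9q, DS3 was lowest at -0.40 and PC9-BR1 next at -0.37, 0.03 apart, and then a gap of 0.43 led to PC9-VU at 0.06 and the other 5 libraries up to 0.18. On 10p, PC9-MGH at -0.41, DS3 at -0.39 and PC9-BR1 at -0.34 lay together, and PC9-VU followed at 0.12. On 12p, PC9-MGH and DS3 were lowest at -0.23 and -0.20, with PC9-BR1 at -0.08. On 21q, DS3 was highest at 0.47, PC9-VU next at 0.16, and DS8 lowest at -0.31. On 15q, DS8 at 0.34 and DS3 at 0.29 were highest and PC9-VU followed at 0.08. On 8p, DS3 was lowest at -0.27, and PC9-BR1, PC9-MGH, DS6 and PC9-VU lay between -0.19 and -0.03. On 20p, DS3 at -0.10 lay above PC9-MGH at -0.28 and PC9-BR1 at -0.23 and below the other 5. Of these 7 arms, DS3 thus lay at an end of the 8 libraries on 9q, 8p and 21q.

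**Figure D5:**
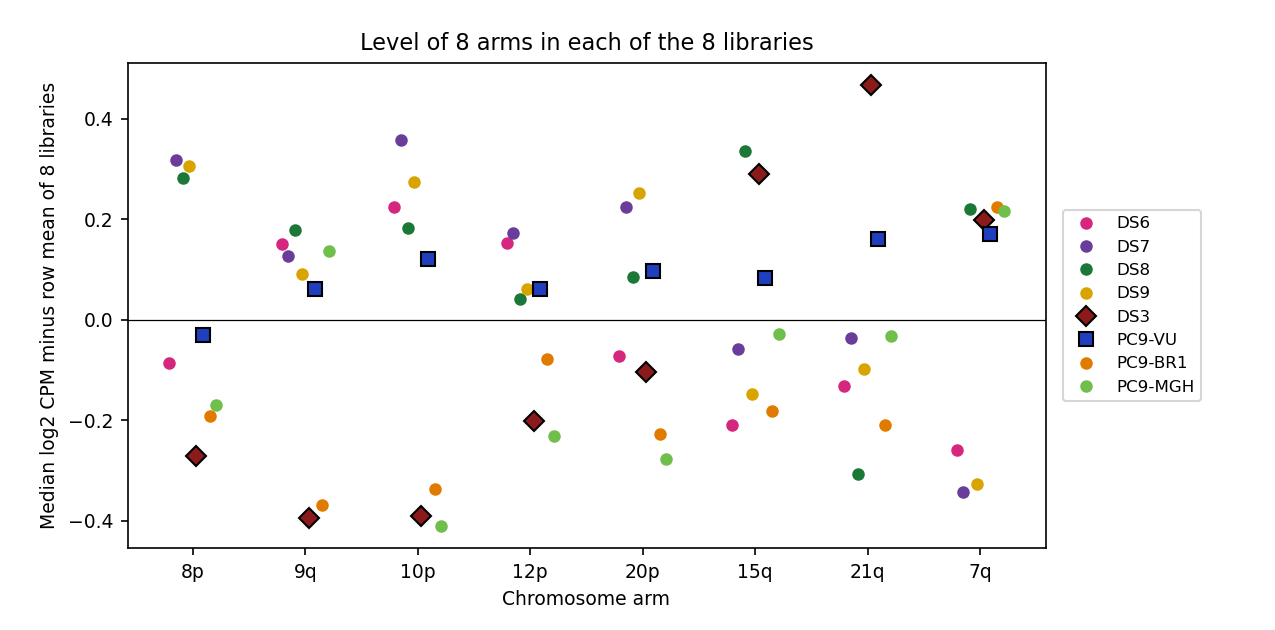
Median log2 CPM of each of 8 arms in each of the 8 libraries, as the difference of each row from its mean over the 8, with DS3 as diamonds, PC9-VU as squares and the other libraries as circles (1 point per library). DS3 and PC9-BR1 lie below -0.3 on 9q, DS3, PC9-BR1 and PC9-MGH do so on 10p, and DS3 lies at 0.47 on 21q.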

How the data were processed

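Bulk RNA-seq of 8 PC9 populations was used, 1 library each, with groups taken from the labels. Per the paper's methods and the labels, RNA was depleted of rRNA and selected for polyA, paired-end reads were aligned with STAR (version 2.5.2b) to hg38, and featureCounts (version 1.6.4) counted them per gene. Strandedness is not given in the sources used here. The authors deposited raw read counts, not normalized, in 1 table of 30988 rows. The 8324 rows without a symbol held 4.33% of the DS3 counts and 4.38% of the PC9-VU counts and were left out.

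The cpm function of edgeR (version 4.0.16 in R version 4.3.3) gave log2 CPM with TMM scaling and 2 as the prior count. Rows averaging 50 counts or more were kept. Of the named ones, 72 could not be placed by symbol in GENCODE release 44 and were left out. Medians were taken over arms and over non-overlapping windows of 25 rows, a shorter last window being joined to the one before. Summed counts have 95% exact intervals, which cover counting error only. With 1 library per population no test was possible. The steps were tested on simulated data.

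Regions were named by a rule: arms with at least 25 rows and a median at least 0.15 from 0, windows with a median at least 0.3 from 0, and all arms and windows of chromosomes 9 and 21. The comparison, the regions and the lists of landmark genes were chosen with earlier results of these data known. Alternatives covered scaling, with DESeq2 (version 1.42.0) size factors among them, the prior count, depth, row filters, the reference library, GC content, window sizes and thresholds.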

Additional observations from a re-analysis of the deposited data

Results flagged for a closer look

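By the sign of the median difference, DS3 lay on the opposite side of PC9-VU from all 4 other sublines on 4 of the 7 called arms. The median log2 CPM difference of DS3 was -0.45 on 9q, -0.54 on 10p, -0.25 on 12p and 0.31 on 21q, while DS6, DS7, DS8 and DS9 had medians of the opposite sign on each. The same held on the uncalled arms 20q, 11q and Xq, where DS3 was at 0.10, 0.04 and 0.03. On Xq the median of DS6 was only -0.0009. With 1 library per subline and a shared PC9-VU library, these differences between sublines were not tested. On 12p the 4 other medians were small, from 0.0041 to 0.10. As the difference from the mean of the 8 libraries, DS8 at 0.04 lay on the DS3 side of PC9-VU at 0.06 on this arm.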

How the results depend on the processing

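No paired analysis was possible because each population has 1 library, and for the same reason no replicate could be left out. In the 10 alternatives of scaling, prior count, depth, row filter and reference for which it was computed, the median of all rows lay between -0.03 and 0.02. Of 119 values of the 7 called arms under 17 alternatives, 104 stayed within a 95% binomial interval of the main median from the spread of its rows, 14 moved and 1 changed sign, 20p at 0.17 over rows of 10 to under 50 counts. Without a row filter 9q was at -0.36, 10p at -0.24 and 21q at 0.26, and the other 4 passed the threshold no more, with 8p at -0.11, 12p at -0.14, 20p at -0.12 and 15q at 0.07. Against the median of the other sublines 9q was at -0.52 and 21q at 0.64. Over the rows of 10 to under 50 counts 21q was at 0.16 and 9p at 0.13. The 7 called arms became 3 without a row filter (2 low, 1 high), 12 against the median of the other sublines (5 and 7), 11 by summed counts (5 and 6) and 11 over the rows of 10 to under 50 counts (6 and 5).

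The 66 rows at least 2-fold apart became 260 of 6353 at a mean of 10 counts (141 lower, 119 higher), 41 at a mean of 100 (22 and 19), 1161 without a filter (574 and 587), 116 against the other sublines (50 and 66), 273 at 1.5-fold (151 and 122) and 13 at 4-fold (6 and 7). The 5 called windows became 9 at a mean of 10 counts (8 and 1), 20 without a filter (13 and 7), 20 against the other sublines (9 and 11), 10 with windows of 15 rows (9 and 1), 3 with windows of 50 (3 and 0), 15 at a threshold of 0.2 (11 and 4) and 2 at 0.5 (2 and 0). The high window of chromosome 21 was at 0.305. No high window was left by library totals without TMM, with counts thinned to the smallest total or with either GC correction. None was left with rows placed by an older symbol added or with shifted windows. The same was so at a mean of 100 counts, where 21q had 23 rows. The causes were not tested. Rows with few counts carry more counting error, and those of 10p and 21q are few.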

Other observations

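A few rows were much farther apart than any arm, and they were picked out after their values were seen. In all, 13 rows differed at least 4-fold between DS3 and PC9-VU, 6 lower and 7 higher, none on a called arm. The low called arms held 6.71% of all rows and the high ones 3.77%, so few of the 13 would lie there by share alone. The farthest was a row named for a gene of 1q, with 6335 counts in DS3, 17 in PC9-VU and between 2 and 11 in the other 6 libraries. A row of 1p had 358 counts in DS3, 25 in PC9-VU and between 9 and 25 in the others, and a row of 20q had 428, 60 and between 3 and 41. A row of 5q had 1670 counts in DS3, 381 in PC9-VU and between 189 and 315 in the others. In the other direction, a row of 4p had 1 count in DS3 and 235 in PC9-VU, and it also had 0 in DS6 and 902 in DS9. A row of 16p had 179 counts in DS3, 814 in PC9-VU and between 499 and 871 in the others. Which transcripts these rows count was not determined here.

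PC9-BR1 was close to DS3 on 9q, with medians against PC9-VU of -0.49 and -0.45. Along 9q the 3 last windows were at -0.32, -0.35 and -0.57 in PC9-BR1 and at -0.36, -0.49 and -0.57 in DS3. On 21q the same libraries lay on opposite sides of PC9-VU, at -0.41 and 0.31.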
